A study of Mus musculus with 4 samples.

Results

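Spic, Hmox1, Vcam1, Hp, Ftl1, Fth1 and Mrc1 are genes of the red pulp macrophage, the spleen cell that removes old red blood cells and recycles their iron, or of iron storage and haemoglobin binding in general. They were chosen by gene symbol, with earlier results of these data known. They are 7 of the 6137 genes that the arrays name, and they were read by 9 of 13057 gene probe sets, 4 on a B chip with 6534 and 5 on an A chip with 6523, each annotated with exactly 1 symbol. A further 2 probe sets of the A chip list Ftl1 together with other symbols and were not counted.

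The samples were CD8 T cells from the B6.2.16 line of mice, whose T cells carry a transgenic T cell receptor for the male HY antigen. Memory cells began as splenocytes of B6.2.16 females without RAG1, which were cultured with HY peptide for 4 days. The resulting effector cells were transferred into female hosts, also RAG1-deficient, and 200 days later memory cells were sorted with magnetic beads from host spleens and lymph nodes (purity given as above 80%). Naive cells were lymph node cells of RAG1-deficient B6.2.16 females, and their purity was given as above 85%. Every donor and host thus lacked RAG1, the recombinase needed to make other T cells or B cells, while macrophages, granulocytes and red cell precursors do not need it. There were 4 Affymetrix arrays, since each population was hybridised once to each of 2 chips named A and B. Without a replicate, neither a spread nor a test can be given, and every difference below compares 1 pair of arrays. Spleen was a source of the memory cells alone, so organ, culture, transfer, age and sorting cannot be told apart from the group. In such bulk RNA, fewer cells of a type and less RNA per cell cannot be told apart either.

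Red pulp macrophages take up ageing red cells, and haem released from them is split by haem oxygenase-1, the product of Hmox1, into iron, biliverdin and carbon monoxide. Haem also induces Spic, an Ets-family transcription factor related to PU.1 on which red pulp macrophages depend and which raises Vcam1 in them. Free iron is stored in ferritin, a shell of heavy (Fth1) and light (Ftl1) chains, and free haemoglobin in plasma is bound by haptoglobin, Hp. Ferritin synthesis is set largely at translation by iron-dependent RNA-binding proteins, which an array of mRNA does not read.

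The sequence upstream of the start site was listed for 4 of the 7 genes, and it is shown for 3 of them because Mrc1 and Ftl1 differed in opposite directions on the B chip and Spic is the gene closest to the identity of the red pulp macrophage. Each is the 250 bases before a RefSeq start site, on the strand of the gene, in build GRCm38.p6. Mrc1 lies at chr2:14229164-14229413 on the plus strand, Spic at chr10:88683024-88683273 on the minus strand and Ftl1 at chr7:45459887-45460136 on the minus strand. Capitals in Mrc1 and Spic mark AGGAAG or its reverse complement, a core bound by Ets factors of the PU.1 type, and capitals in Ftl1 mark CCAAT or its reverse complement, the box bound by NF-Y.
Mrc1: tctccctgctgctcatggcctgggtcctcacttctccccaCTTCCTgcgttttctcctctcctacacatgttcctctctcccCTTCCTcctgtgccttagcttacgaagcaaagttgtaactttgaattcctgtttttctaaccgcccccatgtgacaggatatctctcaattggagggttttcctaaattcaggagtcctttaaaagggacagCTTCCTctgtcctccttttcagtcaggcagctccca
Spic: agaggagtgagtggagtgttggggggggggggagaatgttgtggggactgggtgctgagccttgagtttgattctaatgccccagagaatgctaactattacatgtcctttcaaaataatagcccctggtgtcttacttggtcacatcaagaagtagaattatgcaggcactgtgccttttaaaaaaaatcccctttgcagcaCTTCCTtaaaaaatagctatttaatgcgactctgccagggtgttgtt
Ftl1: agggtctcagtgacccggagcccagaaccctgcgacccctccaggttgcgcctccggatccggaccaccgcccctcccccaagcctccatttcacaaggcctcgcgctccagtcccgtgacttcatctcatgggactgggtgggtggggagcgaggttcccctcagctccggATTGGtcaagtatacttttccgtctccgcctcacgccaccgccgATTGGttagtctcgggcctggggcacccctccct
Searched on both strands, AGGAAG was found 3 times upstream of Mrc1, 1 time upstream of Spic and 0 times upstream of Ftl1, and 29.5% of 32851 upstream windows of the same length held it. The 2 windows listed for Fth1, which are not shown, held AGGAAG 2 times and 1 time. CCAAT was found 2 times upstream of Ftl1, 1 time upstream of Mrc1 and 0 times upstream of Spic, against 33.8% of windows that held it. TGANNNNGC, the core shared by elements that bind NRF2 and BACH1, was found in 0 of the 3 windows and in 35.2% of all. The letters do not overlap between these motifs in the windows shown, and a match or its lack is a description of these windows only. The Ftl1 window was richer in G and C, with 65.2%, than those of Mrc1 with 49.6% and Spic with 44.8%.

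The deposited values were array intensities, 1 whole number per probe set, and on the B chip 34.0% of memory and 35.6% of naive ones were negative. After both B arrays were brought to the same trimmed mean, values up to 423 were treated as noise, and this limit is called the floor. Calls of higher or lower required a ratio of 2-fold or more and a brighter value of 2 times the floor or more. Across the 6534 gene probe sets of the B chip, which share a chip design and are not replicates, memory and naive values correlated with a Spearman coefficient of 0.85. The coefficient was 0.10 for the 6523 of the A chip, so only the memory A array is used, as a level and without a ratio. Its noise limit was 184, taken from its own negative values. Defining markers of CD8 T cells were read at varied levels. Cd8a, the coreceptor chain, read 498 in memory against 352 in naive, the naive value under the floor. Of the receptor-complex chains, Cd3d read 959 in memory and 1115 in naive, and Cd3g 254 in memory, under the floor, and 502 in naive. Cd3e read 317 on the memory A array. Thy1, carried by all mouse T cells, read 2848 in memory against 6184 in naive, a log2 ratio of -1.12 that moved inside 2-fold with median-ratio scaling (-0.97), quantile (-0.34) and lowess normalization (-0.15).

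On the B chip 2 of the 4 member probe sets, Hp and Mrc1, were at least 2-fold higher in memory, 1, Ftl1, was at least 2-fold lower and 1, Vcam1, lay within 2-fold. Of all 1056 probe sets above the floor on 1 array or both, 6.34% were called higher and 10.7% lower. These members were picked with this contrast in view, so nothing is read from their share. The median log2 ratio was 0.84 over the 4 members and -0.12 over the 1056 probe sets. Scaling by the median ratio moved the median of all probe sets to -0.01.

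**Figure D1:**
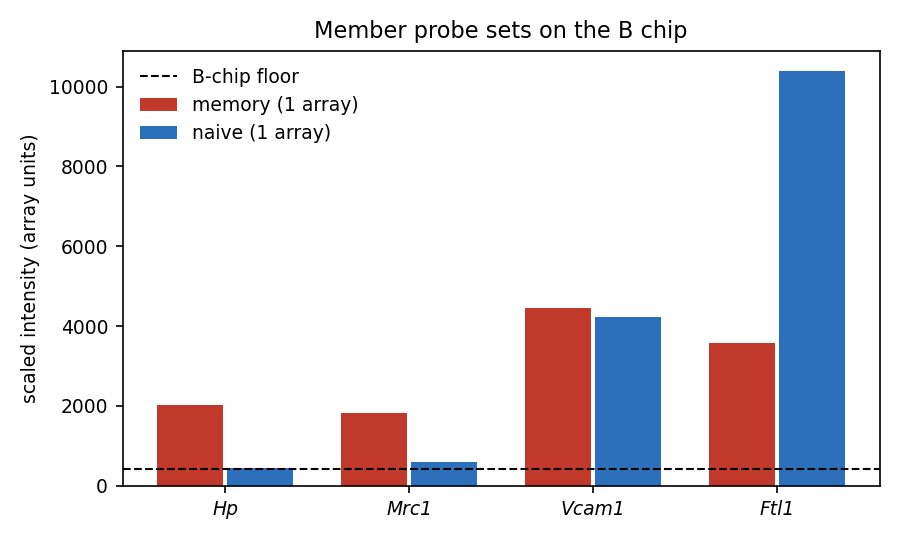
Scaled intensity of the 4 member probe sets on the B chip, with 1 bar for the memory array and 1 for the naive array of each gene. The dashed line is the floor of 423. Hp and Mrc1 stand above the floor in memory and close to it in naive, Vcam1 bars are nearly level, and the naive Ftl1 bar reaches 10380.

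The scavenging molecules were the members that were higher in memory. Hp encodes haptoglobin, made mainly by liver but also stored in the granules of neutrophils and expressed by some macrophages. Its probe set read 2032 in memory and 431 in naive, a 4.71-fold difference with a log2 ratio of 2.24. The naive value was 1.02 times the floor, so its true size is hardly known and the fold is little firmer than a lower bound. With the floor doubled, the ratio was 2.40-fold. Hp was 1 of 120 genes that reached 4 times the floor or more on an array, and among them it had the third highest ratio with bounds counted at their own size. That place holds for this floor only, since the bound of Alas2, 2.20, becomes 3.20 with the floor halved. The genes with the nearest ratios were Alas2, which starts haem synthesis in developing red cells, with a log2 ratio of at least 2.20 (1943 in memory against 183 in naive), and Pla2g7, a lipoprotein-associated phospholipase, with at least 2.32 (2111 in memory against 340 in naive). Both naive values lay under the floor, and likeness here is the difference in ratio over 1 pair of arrays.

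Mrc1, the mannose receptor CD206, is an endocytic receptor of tissue macrophages and of some sinus endothelial cells. It read 1810 in memory and 596 in naive, a 3.04-fold difference, and the log2 ratio was 1.60. The memory value was 4.28 times the floor and the naive value 1.41 times, so the transcript was above the noise in both preparations. The ratio shrank to 2.14-fold when the floor was doubled. The nearest ratios were those of Ly6c2, a surface antigen of monocytes and memory CD8 T cells, at 1.77, and of Csf1r, the macrophage colony-stimulating factor receptor, at 1.32.

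Vcam1, which encodes an adhesion molecule that binds the integrin made of Itga4 and Itgb1, was bright in both preparations. It read 4443 in memory and 4218 in naive, a log2 ratio of 0.07 and within 2-fold. Both values were about as far above the floor, at 10.5 times in memory and 9.97 times in naive. The reading of this gene depended on the normalization. Among the 88 brightest probe sets, which hold Vcam1 and Ftl1, the median log2 ratio was -1.13, with 51 called lower and 0 higher. In the next 88 probe sets the median was -0.19, with 13 lower and 3 higher. The brightest memory value on the B chip before scaling was 5163 and the brightest naive value 15668, so the 2 arrays differ at the top of their range. When this bend was taken out, the Vcam1 log2 ratio became 1.44 with quantile normalization and 1.08 with intensity-dependent (lowess) normalization, past 2-fold with both. Of its partners, Itgb1 was called higher at 1554 in memory against 741 in naive, a call lost with the floor doubled, and Itga4 was under the floor on both arrays (61.5 in memory, 144 in naive).

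**Figure D2:**
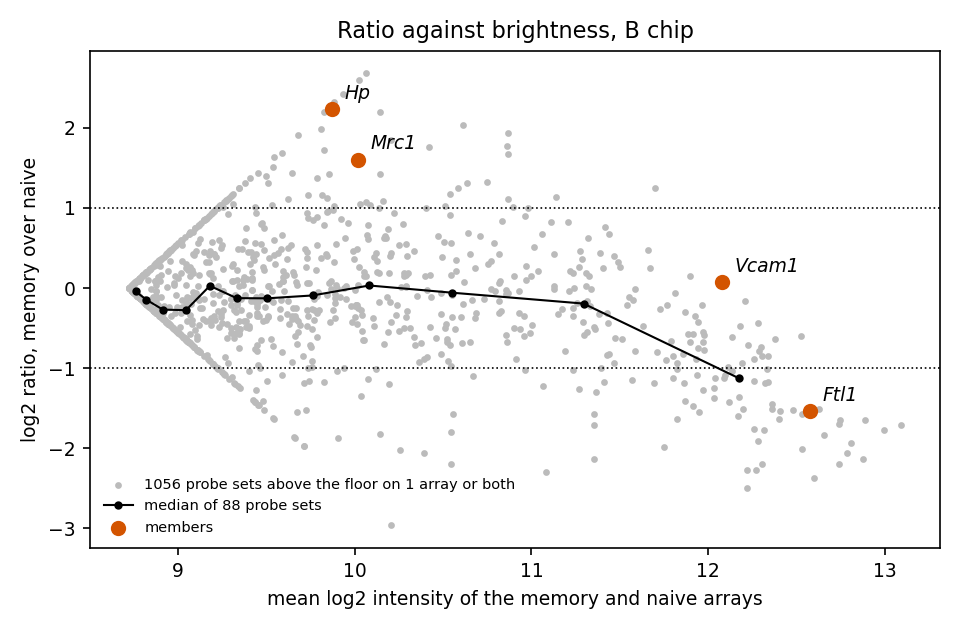
Log2 ratio of memory over naive on the B chip against mean log2 intensity, for 1056 probe sets above the floor on 1 array or both. The black line joins the medians of groups of 88 probe sets, and dotted lines mark 2-fold. The medians stay between -0.28 and 0.03 until the brightest group, where the median is -1.13. Hp and Mrc1 lie far above the line at middling brightness, Vcam1 lies above it at the bright end and Ftl1 slightly below it.

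Ftl1, the ferritin light chain, was the member that was lower in memory. It read 3573 in memory and 10380 in naive, a 2.90-fold difference with a log2 ratio of -1.54. It was among the brightest transcripts of both arrays, at 8.45 times the floor in memory and 24.5 times in naive. The nearest ratios among the 120 genes belonged to ribosomal protein genes of like brightness, Rplp0 at -1.54 and Rps24 at -1.52. Quantile normalization left a log2 ratio of -0.29 and the intensity-dependent one -0.14, and both ended the call. Its probe set is of the sequence-family class (letter f in its name), designed on sequence that related genes share, so transcripts of near-identical copies and of Ftl1 cannot be told apart. The probe sets of Hp, Mrc1 and Vcam1 are of class s (letter s in the name), and whether they match other transcripts was not tested.

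**Figure D3:**
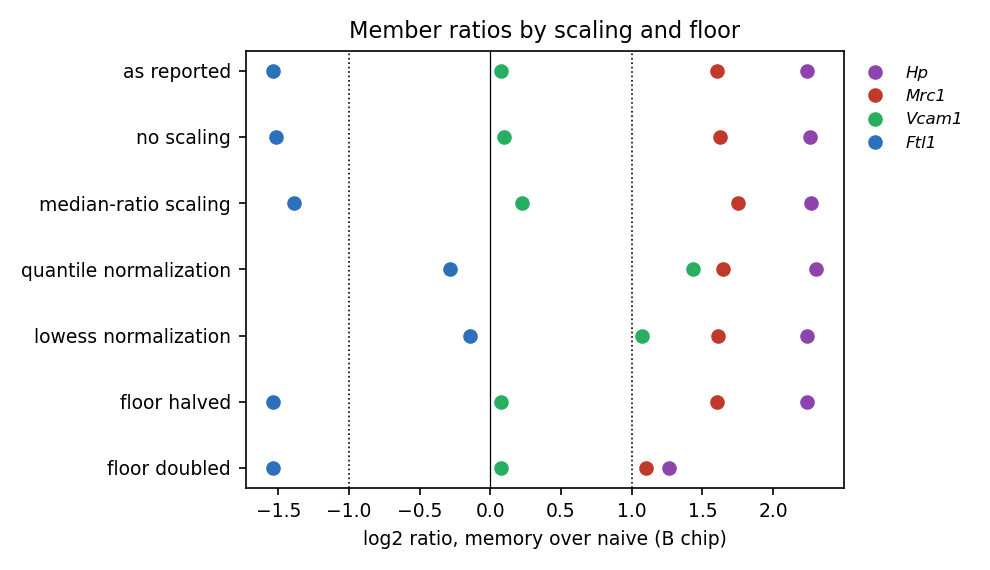
Log2 ratio of memory over naive on the B chip for the 4 member probe sets as reported and under 6 other choices of scaling or floor. Dotted lines mark 2-fold. Hp and Mrc1 stay to the right of the upper line in all 7 rows, Vcam1 crosses it with quantile and lowess normalization, and Ftl1 crosses back inside the lower line with both.

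The genes of the Spic and haem oxygenase axis and the ferritin heavy chain were read on the A chip, where only the memory array is described. All 5 of their probe sets, which read 3 genes, were above its noise limit of 184, compared with 26.7% of 6523 gene probe sets on that array. These genes were chosen with earlier results of these data known, so nothing is read from that share. Spic read 1800, which is 9.78 times the limit, on the single member probe set with no class letter in its name. Hmox1 had a pair of probe sets, which read 2228 and 486, or 12.1 and 2.64 times the limit. The dimmer one is of the sequence-family class, and the brighter one is of class s. Fth1, the heavy chain that carries the ferroxidase activity of ferritin, had 2 sequence-family probe sets, which read 2491 and 1597. Probe sets of 1 gene thus differed in level by more than 1.5-fold here, and no level of one gene is set against another. All 5 stayed above the limit when it was doubled.

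Levels on the memory A array tracked those on the memory B array only in part. For 398 genes read on both chips, the memory A and memory B values had a Spearman correlation of 0.45. Of these genes, 83 were above the noise limit of the memory array on both chips, 58 on the B chip only, 52 on the A chip only and 205 on neither. Mpeg1, a pore-forming protein of macrophages, read 3664 on the memory B array and 96 on the memory A array, and the lysosomal protease Ctsb read 229 and 1939. A value under the limit on the A chip therefore does not show that a transcript is lacking. Values above it were not always matched on the B chip either, and Spic, Hmox1 and Fth1 had no probe set of their own there. Whether Spic, Hmox1 or Fth1 differed between memory and naive cells is not compared here.

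**Figure D4:**
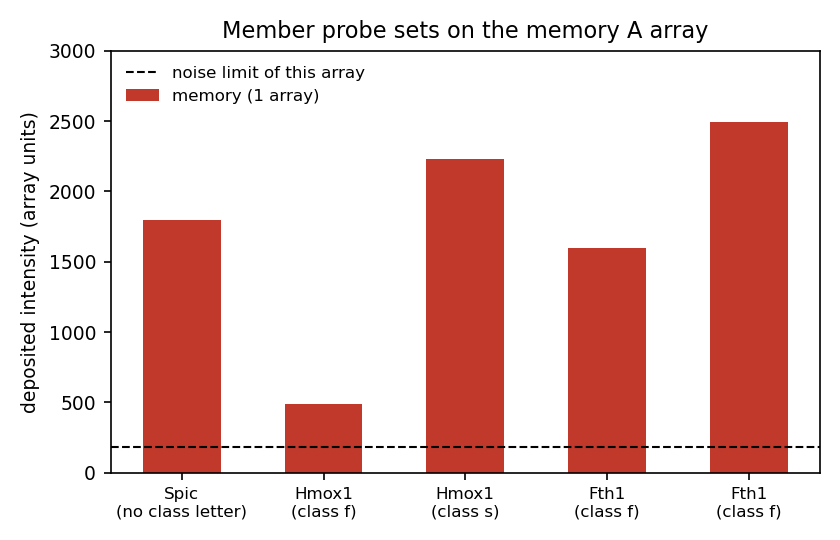
Deposited intensity of the 5 member probe sets on the memory array of the A chip, each bar being 1 probe set, with the class letter of its name. The dashed line is that array's noise limit of 184. Values run from 486 for an Hmox1 probe set to 2491 for an Fth1 probe set, and there is no comparison with naive cells.

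Other genes were listed to place the members, under the name red pulp macrophage list. It also holds genes of macrophages and monocytes in general, such as Csf1r, Cd14 and Lyz2. Its counts are therefore not particular to red pulp macrophages. Of 40 listed genes, 17 had a probe set on the B chip and 15 were above the floor on 1 array or both. Of these 15, 6 were called higher, 0 lower and 9 lay within 2-fold, beside 8.87% of 462 measured genes called higher and 8.66% called lower. The median log2 ratio was 0.70, against -0.12 over the 462 genes. The summed intensity of the 15 genes (dim values raised to the floor) was 32651 in memory against 19102 in naive. Among ratios that were not bounds, the largest were those of Mpeg1 (log2 1.94), Csf1r (1.32), Lgmn (1.31) and Lgals3 (1.25). Lgmn is a lysosomal protease and Lgals3 a galactose-binding lectin. Of the complement C1q chains, C1qb was called higher (log2 1.14), while C1qa (0.82) and C1qc (0.25) lay within 2-fold. Lgals3 read 61 on the memory A array, under the limit, where Mpeg1 also lay. Apoe, also called higher, read 1001 in memory against 260 in naive, the naive value under the floor. Its log2 ratio of 1.24 is therefore a bound, and its place among these genes is not known. The Apoe ratio was 1.95 with the floor halved and 0.24, inside 2-fold, with it doubled. The call of Lgmn was lost with the floor doubled.

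Several surface markers of resident macrophages lay within 2-fold. Adgre1, which encodes F4/80, read 971 in memory against 613 in naive, a log2 ratio of 0.66. Siglec1, the sialic acid receptor of marginal and sinus macrophages, read 693 in memory against 427 in naive, and Axl, a receptor for apoptotic cells, 3118 in memory against 2309 in naive. The macrophage transcription factor Maf read 907 in memory against 989 in naive, and its log2 ratio of -0.13 turned to 0.02 with median-ratio scaling. As examples, these 4 genes were picked with their values in view. The macrophage list was above the floor in the naive preparation too, where 14 of its 15 measured genes passed it. On the memory A array 13 of 23 listed genes (56.5%) were above the limit, compared with 29.5% of 4775 genes. They included Cd5l, a protein secreted by tissue macrophages, at 1628, and Spi1, which encodes PU.1, at 377, while the receptor Mertk read 72, under the limit. The part of macrophage RNA in the ratios of Hp, Mrc1 and Vcam1 was not tested.

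The wider iron and haem handling genes were mostly dim. Of 46 listed, 12 had a probe set on the B chip and 4 were measured. By the size rule 0 were higher, 0 lower and 4 within 2-fold, beside 8.87% of 462 measured genes called higher and 8.66% lower. No replicated test could be run on the 4 listed genes. Their median log2 ratio was 0.32. Lcn2, which binds iron-laden siderophores, read 2157 in memory against 1939 in naive, and the iron-binding milk and granule protein lactoferrin, Ltf, 1246 in memory against 1098 in naive. Lrp1, a receptor that clears haem bound to haemopexin, read 916 in memory against 607 in naive. Alas1, the general first enzyme of haem synthesis, read 584 in memory against 380 in naive, and as the naive value is below the floor the log2 ratio of 0.46 is a bound. The transferrin receptor Tfrc (68.5 in memory, -12.1 in naive), the haem oxygenase paralogue Hmox2 (220 in memory, 184 in naive), the iron-regulatory proteins Aco1 and Ireb2 and the hormone Hamp were under the floor on both arrays. On the memory A array 4 of 11 listed genes (36.4%) were above the limit, compared with 29.5% of 4775 genes. Ncoa4, the receptor that delivers ferritin to lysosomes, read 705, the phagosomal metal transporter Slc11a1 517, the metallothionein Mt2 350, and the iron transporter Slc11a2 185, at the limit itself. Bach1, the haem-sensing repressor of Hmox1, read 66, and its counterpart Nfe2l2, which encodes NRF2, read 135, both under the limit.

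Genes of the response to oxidants share regulators with Hmox1 and the ferritins. Of 14 listed, 3 were measured on the B chip, with 1 higher, 0 lower and 2 within 2-fold. Over all 462 measured genes, 8.87% were called higher and 8.66% lower. Sod2, mitochondrial superoxide dismutase, was at least 2.03-fold higher, at 858 in memory against 285 in naive, the naive value under the floor, and the call was lost when the floor was doubled. Prdx1, a peroxidase, read 3518 in memory against 2197 in naive, and its log2 ratio of 0.68 passed 2-fold with quantile and intensity-dependent normalization. Gpx1, a glutathione peroxidase, read 278 in memory, under the floor, against 515 in naive.

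Because haptoglobin is also a neutrophil product, neutrophil genes were set beside it. Of 19 listed, 4 were measured on the B chip, with 1 higher, 0 lower and 3 within 2-fold, beside 8.87% of 462 measured genes called higher and 8.66% lower. The summed intensity of the 4 genes was 7931 in memory against 8462 in naive. The calprotectin chain S100a8 read 3253 in memory against 2461 in naive, and the granule peptide Camp 3180 in memory against 5061 in naive. The Camp log2 ratio was -0.67 as reported, 0.20 with quantile and 0.24 with intensity-dependent normalization, and that of S100a8 was 0.40, 1.03 and 0.93 under the same settings. The member called higher was the decoy receptor Il1r2, at 1058 in memory against 517 in naive, and this call was lost with the floor doubled. Lcn2 and Ltf, given above with the iron and haem handling genes, are also granule proteins. The part of neutrophil RNA in the Hp ratio was not tested. On the memory A array 5 of 9 listed neutrophil genes were above the limit, compared with 29.5% of 4775 genes. Among the 5 were S100a9 at 2162 and Ngp at 1811.

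Red cell genes moved in both directions beside the members. Of 32 listed, 5 were measured on the B chip, with Alas2 higher, Hba-a1 and Hbb-b2 lower and 2 within 2-fold. Over all 462 measured genes, 8.87% were called higher and 8.66% lower. The globin genes were at 2007 in memory against 11297 in naive for Hba-a1 and 2290 in memory against 6105 in naive for Hbb-b2. Like Ftl1 they are bright in naive, and the log2 ratio of Hbb-b2, -1.41 as reported, moved inside 2-fold with quantile (-0.96) and lowess normalization (-0.58), while that of Hba-a1, -2.49 as reported, was -1.93 and -1.38. Slc4a1, the anion exchanger of the red cell membrane, read 754 in memory against 614 in naive. The summed intensity was 7417 in memory against 18946 in naive. Their part in the member ratios was not tested. Endothelial and stromal genes, a further place where Vcam1 and Mrc1 are expressed, gave no measured gene out of 11 on the B chip, and on the memory A array 1 of 13 was above the limit, Col1a1 at 194. B cell genes gave no measured gene out of 5 on the B chip, and on the memory A array 1 of 7 was above the limit, Ms4a1, which encodes CD20, at 301. Over all 4775 genes of the A chip, 29.5% were above that limit.

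Few markers of dendritic cells and NK cells, which do not need RAG1 either, were measured on the B chip. Of all 462 measured genes, 17.5% were called in either direction. Of 14 dendritic cell and MHC class II genes listed, 4 were measured on the B chip, with 1 higher, 1 lower and 2 within 2-fold, and their summed intensity was 10816 in memory against 16282 in naive. The direction of this sum does not hold for the list, whose median log2 ratio was -0.09 as reported. The median was 0.27 with quantile and 0.39 with lowess normalization. The class II chain H2-Ab1 read 2500 in memory against 1009 in naive. The invariant chain Cd74 read 3068 in memory against 9507 in naive, and its log2 ratio of -1.63 moved inside 2-fold with quantile (-0.69) and lowess normalization (-0.38). Of 12 NK cell genes listed, 3 were measured, with 0 higher, 1 lower and 2 within 2-fold, and their summed intensity was 2250 in memory against 3912 in naive. In memory, Klra4 (102) and Klra8 (279) were under the floor and entered that sum at the floor value. The gene called lower was the protease Gzma, at 1404 in memory against 2848 in naive, a call that each of the 4 other scaling choices ended (log2 ratio -1.02 as reported, -0.998 to -0.826 under them). CD8 T cells can make Gzma too, so neither this gene nor the sum reads NK cells alone. The part of dendritic and NK cells in the member ratios was not tested.

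**Figure D5:**
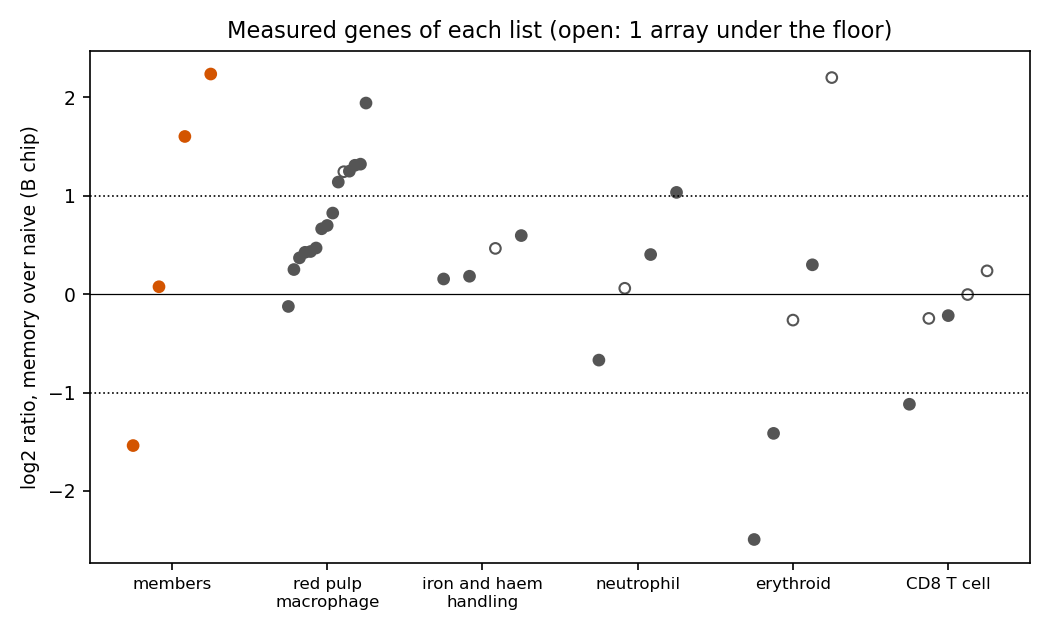
Log2 ratio of memory over naive on the B chip for each measured gene of the members and of 5 lists, 1 point per gene. Open points have 1 array under the floor, so their ratio is a bound, and dotted lines mark 2-fold. Of 15 genes of the red pulp macrophage list 14 lie above 0. The 4 iron and haem genes lie between 0.15 and 0.59, and the erythroid genes spread from -2.49 to 2.20.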

How the data were processed

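Trizol-extracted RNA was turned into cRNA and hybridised to Affymetrix arrays, per the labels' protocols. The authors deposited 1 array intensity per probe set, a whole number that can be negative. For the software and its settings the sources used here give nothing, and they name no genome build. Trimmed means of gene probe sets lay between 145 and 149 on the 4 arrays, so the deposited intensities appeared to be scaled already. The labels do not say if both arrays of a population came from 1 extract.

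Groups came from sample titles and chips from the tables. Gene symbols came from the platform annotation, checked by Entrez number against RefSeq genes of GRCm38.p6, which changed 0 symbols. Probe sets with several symbols were not named. On each chip 61 controls (55 Affymetrix, 6 yeast) were left out. B arrays were scaled to 1 common mean with 2% trimmed at each end (factors 0.993 and 1.01). The floor was taken from the noisier array, as the size that 95% of its negative values did not exceed, and dimmer values were raised to it before log2 ratios were formed. A gene was read by its brightest probe set. Ratios were never formed between chips. Naive A values gave no reading of a gene and entered only the correlation and a count in the closing section.

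The members, lists and tests were chosen with earlier results of these data known. Named genes are all members, up to 4 genes of largest ratio among those called in each list, 5 T cell genes, and for each called member the 2 genes of nearest log2 ratio among those at least 4 times the floor. Other list members are examples chosen after their values were seen. Alternatives were other scalings (lowess span 0.4), the floor halved, doubled or left off, and other size and brightness thresholds. The number of arrays, 1 per group and chip, limits the precision. Python 3.11.15, pandas 2.3.3, NumPy 2.4.6 and statsmodels 0.14.6 were used.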

Additional observations from a re-analysis of the deposited data

Results flagged for a closer look

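Of the 5 member probe sets on the A chip, 1 was above the noise limit of 296 on the naive A array, a column that no comparison uses. Over all gene probe sets, 18.4% of that array's values were above it. Because these values hardly followed the memory values of the same probe sets, the reading is given as a count only. The count is no reading of Spic, Hmox1 or Fth1 in naive cells, and its cause was not tested. No group had the 4 samples needed to look for a sample far from the others.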

How the results depend on the processing

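The number of member probe sets called lower on the B chip was 1 as reported and became 0 with quantile normalization, 0 with lowess normalization and 0 at a 3-fold threshold, since Ftl1 was the only one. The number called higher was 2 as reported and 3 with quantile and lowess normalization, where Vcam1 joined Hp and Mrc1. Over 11 alternatives the Hp log2 ratio ranged from 1.26 to 2.31 and that of Mrc1 from 1.10 to 1.75, and both stayed called under each. Ftl1 ranged from -1.54 to -0.14 and was called under 8 of 11, and Vcam1 ranged from 0.07 to 1.44 and was called under 2 of 11. No member on the B chip is read by a probe set without a class letter, so that alternative gave no value. Dropping the limit on the brighter array changes nothing by construction, because a 2-fold ratio over the floor already requires it. Leaving off the floor was chosen after seeing the data. All 4 members lay above the floor on both arrays. Leaving it off, halving it or requiring both arrays above it therefore could not move a member. A 1.5-fold threshold could not end a call. The red pulp macrophage list had between 4 (floor doubled) and 8 (quantile) genes called higher under the 6 other scalings and floors, and 0 lower. It had 1 at a 3-fold threshold and 0 among probe sets without a class letter, where 1 gene was measured. The share of higher among all called probe sets was 37.2% as reported, 48.2% with median-ratio scaling, 57.8% with quantile and 61.1% with lowess normalization. Across the 11 lists other than the members, 43 of 242 recomputed counts moved by more than 1.5 times. Some of the 242 could hardly move, as with the brightness limit dropped or in lists with no measured gene. The counts that stayed are therefore no measure of stability. Calls of dim genes are limited by the floor, where a naive signal under 423 cannot be told from noise. Leaving out an array would leave a chip with 1 group. No paired analysis was possible because each chip holds 1 array per group.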
